A study of Mus musculus with 24 samples.

Results

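Hippocampal libraries that differed in their content of choroid plexus transcripts were set against each other. Of 24 libraries, the 8 with the highest level of Ttr (Ttr-high) and the 8 with the lowest (Ttr-low) were compared, and the other 8 (middle libraries) were kept apart. Ttr encodes transthyretin, a thyroid hormone carrier that the choroid plexus epithelium makes in large amounts, and it was used here only to rank the libraries. Ttr, as CPM (read counts scaled to the column total), ran from 619 to 3135 CPM in the Ttr-high libraries (median 1194) and from 21.4 to 116 CPM in the Ttr-low libraries (median 71.6). At the edges of the sets, the 8th library in rank held 619 CPM and the 9th, a middle library, held 522 CPM. The 17th library in rank, in the Ttr-low set, held 116 CPM, and the 16th, a middle library, held 163 CPM.

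All mice carried the PS19 transgene, human tau with the P301S change under the prion promoter, and kept mouse Trem2 or had 1 human TREM2 allele. The Ttr-high set held 3 LG72 R47H-TREM2 females, 3 LG72 R47H-TREM2 males and 2 LG73 Trem2+/+ females. The Ttr-low set held 2 LG72 R47H-TREM2 males, 2 LG72 Trem2+/+ males, 1 LG72 Trem2+/+ female and 3 LG73 WT-TREM2 females. LG72 and LG73 are prefixes of the sample titles, and the labels used here give neither the age nor the background strain of the mice. R47H-TREM2 thus made up 6 of 8 Ttr-high and 2 of 8 Ttr-low libraries, and WT-TREM2 0 of 8 and 3 of 8. Genotype was thus unequal between the sets, and the comparison of the 16 libraries did not adjust for it. The LG72 R47H-TREM2 males were the one group with several libraries on each side, and values within them are given below.

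The choroid plexus is a fold of epithelium and vascular stroma that lies in the brain's ventricles and borders the hippocampus along its fissure. Its epithelial cells secrete cerebrospinal fluid by moving sodium, potassium, chloride, bicarbonate and water, are sealed by leaky tight junctions, and release carrier proteins and growth factors. Ependymal cells, which line the ventricles, carry motile cilia. Epithelium, ependyma and stroma can be carried over when a hippocampus is lifted out of the brain.

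Depth was 13261478 to 22008861 counts per library in the Ttr-high set (median 16863126.5) and 17724885 to 23807390 in the Ttr-low set (median 19929080). Some libraries held transcripts of tissue outside the hippocampus, here called libraries in doubt where Prl or Omp was above 50 CPM or Adora2a above 30 CPM. In 1 Ttr-high library (LG72 R47H-TREM2 female 5) the pituitary hormone gene Prl stood at 975 CPM. In 3 Ttr-low libraries Adora2a, a receptor gene of striatal neurons, stood at 57.5, 54.9 and 32.8 CPM, against 0.649 to 4.05 CPM in the Ttr-high libraries. Among the middle libraries, LG72 Trem2+/+ female 1 held Omp, a gene of olfactory neurons, at 419 CPM, and LG73 Trem2+/+ female 3 held Prl at 58.9 CPM. Alb, the albumin gene of liver, was above 30 CPM in 4 Ttr-high and 7 Ttr-low libraries. The markers of excitatory hippocampal neurons were present in every library and summed to 3228, 6792 and 11049 CPM in the Ttr-high and to 5106, 6993 and 9580 CPM in the Ttr-low libraries (lowest, median and highest). The lowest sum, in LG72 R47H-TREM2 female 1, stood with the highest Gfap, 11898 CPM.

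Of 14692 genes that passed a filter on low counts (the genes tested), 94 (0.64%) were separated upward, which means that the 8 Ttr-high and the 8 Ttr-low libraries did not overlap and the log2 fold change was at least 1. No gene was separated downward (0%). Because a measured value chose the libraries, these counts are a description and carry no test. A gene near 0 in every Ttr-low library could pass the filter only through the Ttr-high libraries. For such genes the filter itself set the lack of overlap, and the count upward includes them. Of 49 tested genes on 2 lists of the choroid plexus epithelium, which leave out Ttr, 29 were separated, all of them higher in the Ttr-high libraries. Their median log2 fold change was 2.64 in a list of 19 transporters and channels and 2.63 in a list of 30 other epithelial genes, against -0.03 over all genes tested. Without LG72 R47H-TREM2 female 1, 0.852% of genes were separated upward, among them 14 of the 19 and 21 of the 30 genes. In bulk tissue, more cells of a type and more RNA per cell cannot be told apart. Levels below are CPM with TMM scaling, each as the lowest, median and highest of 8 libraries unless stated otherwise.

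The largest log2 fold change, 4.71, was that of Tmprss11a, a serine protease family gene on none of the lists, at means of only 1.97 CPM in the Ttr-high and 0.0659 CPM in the Ttr-low libraries. With so few counts in the Ttr-low libraries, Tmprss11a could pass the filter only through the Ttr-high libraries. Its lack of overlap was thus set by the filter. Among separated genes with a mean of at least 5 CPM in the Ttr-high libraries, the largest folds belonged to potassium channel and bicarbonate transport genes of the epithelium's apical membrane. Kcne2, a potassium channel subunit (chr16:92292389-92298129, GRCm38), stood at 17.3, 34.2 and 59.2 CPM in the Ttr-high libraries and at 0.369, 1.34 and 3.47 CPM in the Ttr-low libraries. The lowest Ttr-high library was thus above the highest Ttr-low library. Mean levels were 35.6 ± 15.3 and 1.5 ± 1.07 CPM (SD, n = 8 each), a log2 fold change of 4.55. Kcnj13, which encodes the inward rectifier Kir7.1 (chr1:87386363-87394729), stood at 12.9, 24.9 and 61.7 CPM in the Ttr-high and at 0.53, 1.03 and 3.43 CPM in the Ttr-low libraries (log2 fold change 4.42). The top value of Kcnj13 came from LG72 R47H-TREM2 female 2, the library with the most Ttr.

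Slc4a5, Aqp1 and Clic6, genes of bicarbonate, water and anion transport, were without overlap as well. The sodium bicarbonate cotransporter gene Slc4a5 (chr6:83219828-83304945) stood at 7.54, 18.4 and 33.4 CPM in the Ttr-high and at 0.222, 0.871 and 2.0 CPM in the Ttr-low libraries (log2 fold change 4.43). For the water channel gene Aqp1 (chr6:55336432-55348555) the values were 9.59, 26.8 and 61.7 CPM in the Ttr-high and 0.443, 1.63 and 3.19 CPM in the Ttr-low libraries (4.08). Clic6, a chloride channel family gene (chr16:92485736-92541243), was at 32.6, 72.4 and 132.2 CPM in the Ttr-high and 2.09, 8.73 and 15.8 CPM in the Ttr-low libraries (3.23). In Slc4a5 and Aqp1 the highest Ttr-low library stayed well below the lowest Ttr-high library. Other separated transporters were the sulfate transporter Slc13a4 (log2 fold change 3.01), the retinoid transporter Abca4 (3.08), the cation channel Trpv4 (2.95), the glucose transporter Slc2a12 (2.64) and the copper transporter Slc31a1 (1.27).

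Several genes of junction, surface and secreted proteins of the epithelium showed the same split. Cldn2, a pore-forming claudin of leaky tight junctions, stood at 7.32, 17.6 and 37.6 CPM in the Ttr-high and at 0.202, 1.10 and 1.76 CPM in the Ttr-low libraries (log2 fold change 4.28). Folr1, the folate receptor that carries folate into cerebrospinal fluid, stood at 5.34, 19.7 and 27.2 CPM in the Ttr-high and at 0.610, 1.54 and 2.28 CPM in the Ttr-low libraries (3.66). Prlr, the prolactin receptor, stood at 16.7, 35.4 and 84.7 CPM in the Ttr-high and at 1.48, 3.17 and 4.90 CPM in the Ttr-low libraries (3.53). Each of these 3 genes was without overlap. In the library with 975 CPM of Prl, Prlr stood at 37.8 CPM, inside the range of the other Ttr-high libraries.

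Enpp2, Kl and Igf2 encode secreted or shed proteins of cerebrospinal fluid. Enpp2, which makes the lipid-generating enzyme autotaxin, stood at 791, 1298 and 2506 CPM in the Ttr-high and at 131, 232 and 279 CPM in the Ttr-low libraries. Means were 1406 ± 565 and 218 ± 56.8 CPM (SD, n = 8 each; log2 fold change 2.69). Kl, the gene of Klotho, stood at 45.7, 117 and 203 CPM in the Ttr-high and at 13.1, 19.2 and 35 CPM in the Ttr-low libraries (2.50). Igf2, a growth factor gene of choroid plexus and meninges that stood on the stromal list, was at 95.0, 166 and 281 CPM in the Ttr-high and at 15.2, 31.1 and 53 CPM in the Ttr-low libraries (2.48). All 3 were still above 10 CPM in every Ttr-low library, and none overlapped between the sets.

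The other genes with the largest folds were Tmem72 (log2 fold change 4.30), the secreted protease inhibitor family gene Wfdc2 (4.07), the BMP and Wnt antagonist Sostdc1 (3.94), the metalloreductase family gene Steap1 (3.86), Prr32 (3.39), Calml4 (3.33) and 1500015O10Rik (3.30). Sostdc1 stood at 15.3, 48.3 and 97.2 CPM in the Ttr-high and at 1.43, 3.21 and 6.19 CPM in the Ttr-low libraries. Wfdc2 and Prr32 stood on none of the cell type lists.

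Transcription factor genes of the choroid plexus lineage were split in part. Otx2, a homeobox factor required for choroid plexus formation (chr14:48657677-48673819), stood at 7.32, 16.3 and 32.0 CPM in the Ttr-high and at 1.05, 2.04 and 3.81 CPM in the Ttr-low libraries (log2 fold change 3.05). Lmx1a, a homeobox factor of the roof plate from which the tissue arises, reached only 0.659, 2.52 and 5.24 CPM in the Ttr-high libraries. In the Ttr-low libraries it stood at 0, 0.192 and 0.381 CPM (3.65). At such levels Lmx1a could pass the filter on low counts only through the Ttr-high libraries, so its lack of overlap was set by the filter. Msx1, a homeobox factor of the same region, overlapped between the sets, at 2.84, 7.45 and 14.3 CPM in the Ttr-high and 0.369, 2.04 and 3.26 CPM in the Ttr-low libraries (2.02).

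Because Otx2 is a homeobox factor of this epithelium, promoters (from 250 bases before to 50 after a RefSeq gene start, GRCm38.p6) were searched on both strands for its core motif TAATCC. The motif was present in 4 of 55 promoters of epithelial list genes (7.27%, 43 genes matched), against 2320 of 32851 promoters of all genes (7.06%). Over all separated genes it was in 10 of 96 promoters (10.4%). The RFX X-box, a motif of ciliary gene promoters, was in 0 of 19 promoters of ependymal list genes and in 42 of all promoters (0.128%). The searched string is so rare that 0 of 19 gives no information on these genes. A match is only a match of letters in this window. The bases before the start are shown for the 2 separated epithelial genes that held TAATCC, with capitals for the motif as it reads on the other strand. The first is chr3:122044210-122044459 on the plus strand and the second, for 1 of several starts of Otx2, is chr14:48665110-48665359 on the minus strand.
Abca4: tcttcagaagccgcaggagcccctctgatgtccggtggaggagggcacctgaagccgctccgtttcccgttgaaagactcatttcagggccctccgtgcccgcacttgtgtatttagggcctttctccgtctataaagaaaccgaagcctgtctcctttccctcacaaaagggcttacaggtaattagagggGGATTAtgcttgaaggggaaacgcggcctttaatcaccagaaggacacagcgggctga
Otx2: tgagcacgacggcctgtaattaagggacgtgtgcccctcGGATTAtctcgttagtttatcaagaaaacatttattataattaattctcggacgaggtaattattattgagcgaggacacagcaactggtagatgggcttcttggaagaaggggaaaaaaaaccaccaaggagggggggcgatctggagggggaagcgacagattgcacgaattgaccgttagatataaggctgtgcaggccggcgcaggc

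**Figure D1:**
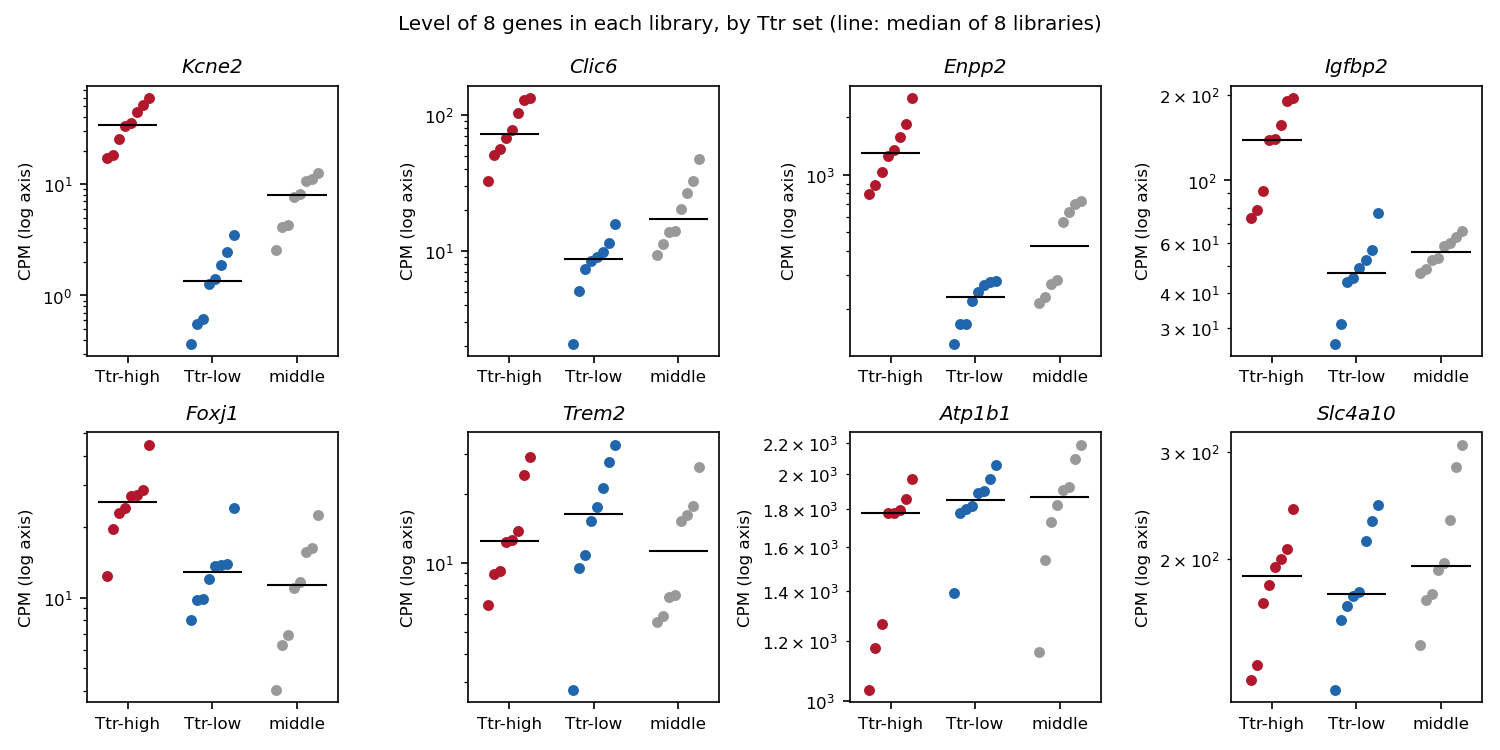
Level of 8 genes in CPM on log axes in the Ttr-high, Ttr-low and middle libraries, 1 point per library with a line at the median. Kcne2, Clic6 and Enpp2 did not overlap between Ttr-high and Ttr-low libraries. Igfbp2 met only at the edges of the sets, Foxj1 overlapped more widely, and Trem2, Atp1b1 and Slc4a10 lay across the same range.

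Of the 49 epithelial genes, 20 were not separated. Some were higher in the Ttr-high libraries but overlapped by 1 or a few libraries. Igfbp2, a secreted binding protein of insulin-like growth factors, stood at 73.5, 139 and 195 CPM in the Ttr-high and at 26.5, 47.2 and 76.9 CPM in the Ttr-low libraries (log2 fold change 1.48), so that the sets met only at their edges. Slc4a2, an anion exchanger, met at its edges too, at 38.0, 71.5 and 114 CPM in the Ttr-high and 28.6, 34.7 and 39.7 CPM in the Ttr-low libraries (1.19). Among the others, Cox8b (3.50), Slc16a8 (2.85), Krt8 (2.57), Col9a3 (1.74), Wfikkn2 (1.45), Slc29a4 (1.43), Cldn3 (1.41), Car12 (1.39), Spint2 (1.34), Vat1l (1.03), Trpm3 (1.02) and Car14 (0.85) were all higher in the Ttr-high set on average. For 10 of the 20 genes, 1 Ttr-low library alone reached the level of the lowest Ttr-high library. Among these 10 it was LG72 Trem2+/+ male 2 for Trpm3 (70.1 CPM, with the next Ttr-low library at 33.1) and Car14 (17.0, with the next at 9.996). The same library was the one for Wfikkn2 (5.11, with the next at 1.56), Slc16a8 and Slc12a2. For Vat1l (67.0, with the next at 39.1) it was LG72 Trem2+/+ female 3, a library in doubt. For Igfbp2, Cox8b and Spint2 it was LG73 WT-TREM2 female 2, also in doubt, and for Slc4a2 LG72 Trem2+/+ male 1.

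Among transport genes that neurons and glia also express, Atp1b1, Slc4a10 and Slc5a3 differed little, and Slc12a2 was higher in the Ttr-high libraries. For Slc12a2, 1 Ttr-low library alone reached the level of the lowest Ttr-high library. Slc12a2, the sodium-potassium-chloride cotransporter NKCC1, stood at 96, 127.1 and 178 CPM in the Ttr-high and at 63.5, 83.3 and 110 CPM in the Ttr-low libraries (log2 fold change 0.67). Atp1b1, the beta subunit of the sodium pump, stood at 1033, 1777 and 1968 CPM in the Ttr-high and at 1392, 1851 and 2054 CPM in the Ttr-low libraries (-0.21). Slc4a10, a sodium bicarbonate transporter of epithelium and neurons, stood at 126.3, 188 and 242 CPM in the Ttr-high and at 121, 175 and 245 CPM in the Ttr-low libraries (-0.03). For Atp1b1 and Slc4a10 the 2 sets covered nearly the same range. The inositol transporter Slc5a3 (0.11) and the serotonin receptor Htr2c (0.70) also overlapped. Slco1a5 was too low to be tested, with a median of 1.39 CPM in the Ttr-high and 0.0868 CPM in the Ttr-low libraries.

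How closely a gene kept to Ttr was described by its slope, the log2 change in level per log2 unit of Ttr over all 24 libraries within the 6 groups. A slope of 1 is a fixed ratio to Ttr, and a slope near 0 is a level that did not move with it. The slope was 0.99 ± 0.07 for Kcne2, 1.06 ± 0.07 for Slc4a5 and 1.02 ± 0.09 for Kcnj13 (± SE), all at a nearly fixed ratio to Ttr. It was 0.75 ± 0.08 for Clic6, 0.72 ± 0.06 for Otx2, 0.56 ± 0.06 for Enpp2 and 0.53 ± 0.06 for Kl. Of the 94 separated genes, 13 had a slope of at least 0.8 and 46 a slope under 0.5. Over the 49 epithelial genes the slopes ran from -0.01 for Atp1b1 to 1.06 for Slc4a5, with a median of 0.57, against 0.00 over all genes tested. These slopes use the values that ranked the libraries and carry no test.

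**Figure D2:**
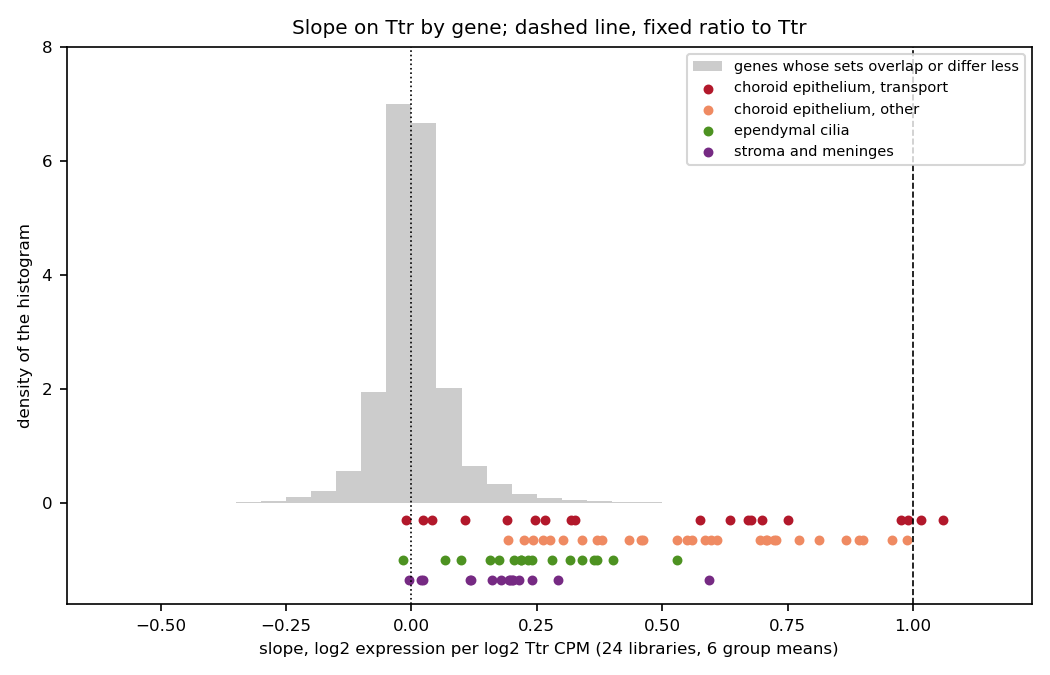
Slope of each gene on log2 Ttr over 24 libraries with a mean for each of 6 groups. The grey histogram shows genes that were not separated, which centre on 0, and the points show genes of 4 lists, with Slc4a5, Kcnj13, Tmem72 and Kcne2 near the dashed line of a fixed ratio.

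Ependymal cilia genes were higher in the Ttr-high libraries as a list, by less than the epithelial genes. All 17 tested members had a positive log2 fold change (6769 of the 14692 genes tested did), 4 were separated, and the median was 1.13. The separated members were Dynlrb2, a dynein light chain gene (2.05), Tekt1, a tektin of cilia (1.73), Rsph1, a radial spoke gene (1.66), and 1110017D15Rik (1.62). Tekt1 stood at 5.5, 7.95 and 9.90 CPM in the Ttr-high and at 1.76, 2.15 and 3.58 CPM in the Ttr-low libraries. Foxj1, the factor that turns on motile cilia genes, stood at 12.3, 25.5 and 44.7 CPM in the Ttr-high and at 7.98, 12.8 and 24.1 CPM in the Ttr-low libraries, and the sets overlapped (0.98). The median slope on Ttr of the ependymal list was 0.23, against 0.57 for either epithelial list.

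Stromal and meningeal genes were also higher on average over the 16 libraries, with 14 of 15 tested members positive (6769 of all 14692 genes) and a median log2 fold change of 0.86, but Igf2 alone was separated. The median was 0.68 in the LG72 R47H-TREM2 males and 0.37 in LG73, with 11 of 15 positive in each. It was 1.01 in LG72 and 1.14 in females, with 14 of 15 positive in each. In the middle libraries 9 of 15 had a positive slope on Ttr, against 50.8% of all genes, with a median of 0.15. The collagen gene Col1a2 (1.27) and the matrix gene Bgn (1.27) overlapped between the sets. Dcn, which encodes decorin, a proteoglycan of fibroblasts, went the other way, at 3.73, 15.3 and 29.2 CPM in the Ttr-high and 3.26, 29.0 and 57.1 CPM in the Ttr-low libraries (-0.92). In the LG72 R47H-TREM2 males Dcn was separated downward (-1.30) and 2 of the 15 genes upward. The shares of all genes there were 0.821% downward and 3.26% upward. Plvap, a gene of the fenestrated capillaries of the choroid plexus, stood at 2.78, 5.26 and 6.83 CPM in the Ttr-high and at 2.71, 6.10 and 20.0 CPM in the Ttr-low libraries (-0.52). The 20.0 CPM was in LG73 WT-TREM2 female 2, a library in doubt, with the next Ttr-low library at 6.71 CPM. Without the libraries in doubt the log2 fold change of Plvap was -0.045. Gpihbp1 and Esm1, the other markers listed for these capillaries, were too low to be tested. Of 10 border macrophage markers, 3 were high enough to be tested and none of them was separated (Mrc1 1.34, F13a1 0.90 and Stab1 -0.10). Mrc1 stood at 8.20 CPM in LG72 R47H-TREM2 female 1, with the next Ttr-high library at 2.76 CPM. Without that library the log2 fold changes were 0.39 for Mrc1, 0.55 for F13a1 and -0.08 for Stab1. Haemoglobin genes could not be used, since Hba-a1, Hbb-bs and Hbb-bt were listed at 0 in all 24 libraries.

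Of the 94 separated genes, 29 were on an epithelial list, 4 on the ependymal list and 1 (Igf2) on the stromal list, and 60 were on none. Genes named next were chosen from those 60 after their values were seen. They included receptor and secreted protein genes such as Lepr, the leptin receptor, at 2.72, 6.62 and 9.0 CPM in the Ttr-high and 0.335, 0.843 and 1.51 CPM in the Ttr-low libraries (2.92). Lbp, the lipopolysaccharide-binding protein, stood at 5.12, 18.7 and 38.3 CPM in the Ttr-high and at 1.22, 2.37 and 4.81 CPM in the Ttr-low libraries (2.95). The basement membrane collagen Col8a2 (2.90), the sulfatase Sulf1 (1.87), the cell cycle inhibitor Cdkn1c (1.66), the desmosome genes Perp (1.69) and Dsg2 (1.08), the fatty acid elongase Elovl7 (1.2) and the quinone reductase Nqo1 (1.01) were separated as well. Pifo (2.70), a gene of cilia, and Wdr63 (2.54), a dynein assembly gene, were separated and not on the ependymal list.

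**Figure D3:**
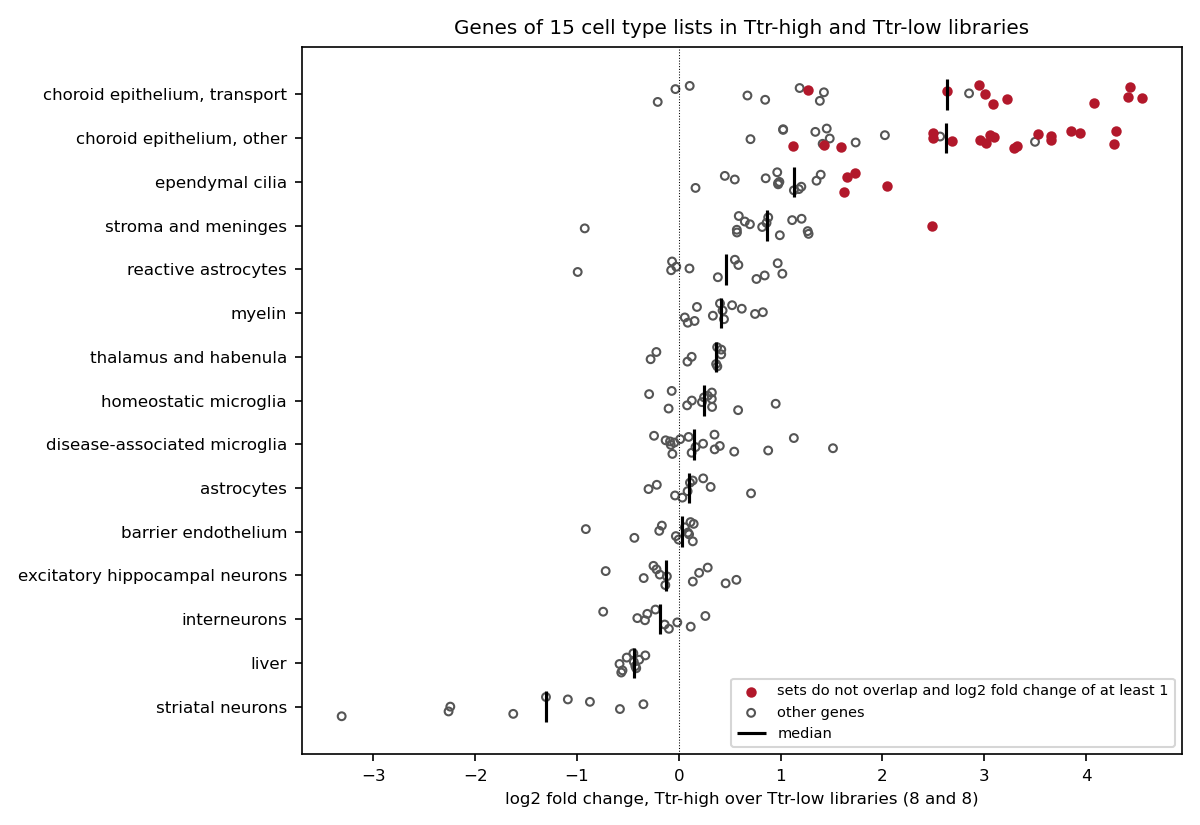
Log2 fold change of each tested gene, Ttr-high over Ttr-low libraries (n = 8 each), by 15 lists, with the list's median as a bar and separated genes filled. The epithelial lists have medians of 2.64 and 2.63, the ependymal list 1.13 and the stromal list 0.86, and the striatal list lies below 0 at -1.31.

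Lists of the hippocampus's own cells had no separated gene over the 16 libraries. Median log2 fold changes were 0.10 for 10 astrocyte genes, -0.12 for 12 genes of excitatory hippocampal neurons, -0.18 for 10 interneuron genes and 0.03 for 12 genes of barrier endothelium. Myelin genes had a median of 0.42, with all 12 positive, and a wide spread: Mbp stood at 1246, 3249 and 10337 CPM in the Ttr-high and at 1643, 2273 and 6766 CPM in the Ttr-low libraries. Summed myelin levels ran from 5595 to 19444 CPM in the Ttr-high and from 5504 to 14944 CPM in the Ttr-low libraries. The myelin median was 0.62 in the LG72 R47H-TREM2 males, 0.60 in LG72 and -0.32 in LG73 (with 1 of 12 positive). In each of the first 2 subsets 3 of 12 myelin genes were separated upward, Mbp among them (1.05 in the males). The shares of all genes separated upward there were 3.26% and 1.32%. In LG73 2 of 12 excitatory neuron genes were separated upward and 2 of 12 barrier endothelium genes downward. The shares of all genes in LG73 were 2.09% upward and 1.98% downward. Small sets such as these overlap less often.

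Microglial genes did not split with Ttr either. The 13 homeostatic genes had a median log2 fold change of 0.25 and the 18 disease-associated genes 0.15, and none was separated. Trem2, the gene at whose locus the mice differed (chr17:48346401-48354147), stood at 6.54, 12.5 and 29.0 CPM in the Ttr-high and at 2.77, 16.4 and 32.9 CPM in the Ttr-low libraries (14.6 ± 7.90 and 17.2 ± 9.88 CPM, SD, n = 8 each; -0.24). Apoe, a lipid carrier gene of glia, differed by -0.06. The 12 reactive astrocyte genes had a median of 0.47, and Gfap stood at 638, 3445 and 11898 CPM in the Ttr-high and at 459, 2323 and 3932 CPM in the Ttr-low libraries (1.02). Without LG72 R47H-TREM2 female 1 the reactive astrocyte median was 0.15 and the log2 fold change of Gfap 0.59. In LG73 the disease-associated microglial median was -0.46 and the log2 fold change of Gfap -0.48. In the 5 Ttr-high and 4 Ttr-low females the reactive astrocyte median was 1.62 and the disease-associated microglial median 0.78. Those 5 Ttr-high females were 3 R47H-TREM2 and 2 Trem2+/+ mice and the 4 Ttr-low females 1 Trem2+/+ and 3 WT-TREM2 mice. The part of genotype in these values was not tested.

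Genes of striatum, another brain region, and of liver had lower medians in the Ttr-high libraries. Striatal genes had a median log2 fold change of -1.31, with 0 of 9 positive, and a summed level of 184 to 317 CPM in the Ttr-high and 191 to 1233 CPM in the Ttr-low libraries. Without the 1 Ttr-high library with Prl at 975 CPM and the 3 Ttr-low libraries with raised Adora2a, the striatal median was -0.13. The 10 liver genes had a median of -0.44, with 0 of 10 positive. Their summed levels ran from 4.76 to 376 CPM in the Ttr-high and from 23.4 to 332 CPM in the Ttr-low libraries. Among libraries with Alb, itself 1 of these genes, above 30 CPM, the liver median was 0.33, with 10 of 10 positive. Without the 1 library high in Prl and the 3 with raised Adora2a, 162 genes (1.09%) were separated upward and 1 (0.00671%) downward. The medians of the same 19 and 30 epithelial genes were then 2.50 and 2.84.

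**Figure D4:**
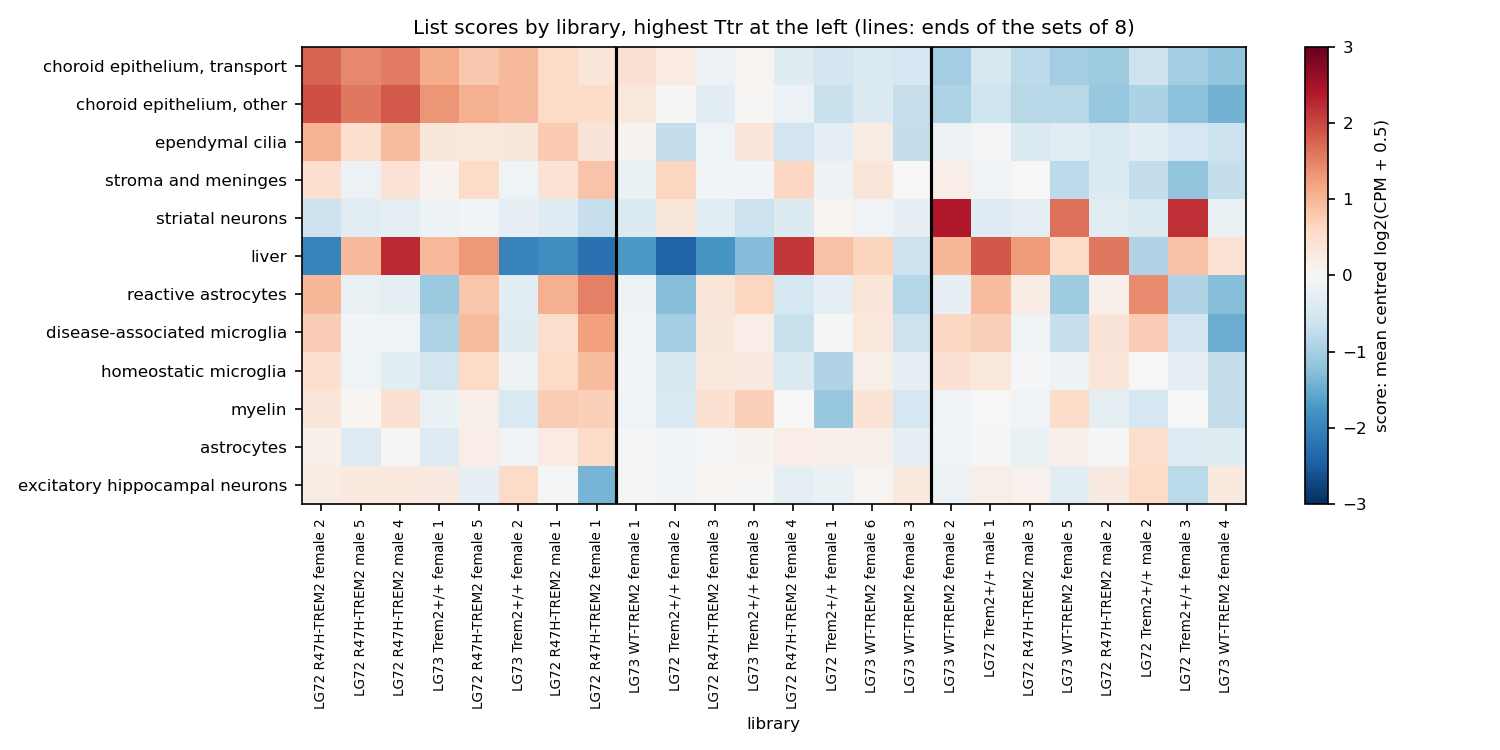
Score of 12 lists in each of 24 libraries, from the highest Ttr at the left to the lowest at the right, as log2(CPM + 0.5) of each gene less its mean over the libraries, averaged over the list. Epithelial scores run from high to low with Ttr, striatal scores are higher in 3 Ttr-low libraries, and liver scores go up and down across both sets.

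Within the 5 LG72 R47H-TREM2 males, genotype, sex and title prefix were the same on both sides. Kcne2 stood at 44.3, 51.9 and 17.3 CPM in the 3 Ttr-high males and at 2.44 and 1.27 CPM in the 2 Ttr-low males. Clic6 was at 102, 129 and 50.4 CPM in the Ttr-high and 8.48 and 2.09 CPM in the Ttr-low males. Enpp2 was at 1841, 1582 and 1040 CPM in the Ttr-high and 218 and 166 CPM in the Ttr-low males. In each of these genes the lowest Ttr-high male stood several times above the highest Ttr-low male. In these males 493 of 15101 genes (3.26%) were separated upward and 0.821% downward. The upward genes included 15 of the 19 transport and 27 of the 30 other epithelial genes. Medians of the 19 and 30 genes were 2.60 and 2.91 in these males, against 2.64 and 2.63 over all 16 libraries. This comparison of males was added after the values were seen.

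Trem2 in the same males stood at 12.6, 6.54 and 12.3 CPM in the Ttr-high and at 10.8 and 15.3 CPM in the Ttr-low males, so the sets overlapped. Foxj1 stood at 27.2, 27.0 and 24.1 CPM in the Ttr-high and at 13.7 and 13.9 CPM in the Ttr-low males. Of the 17 ependymal genes, 10 were separated upward there, against 3.26% of all genes.

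The epithelial lists were also counted in other subsets of the 2 sets. In LG72 alone (6 Ttr-high and 5 Ttr-low libraries) 1.32% of genes were separated upward and 0.0674% downward, and 10 of the 19 transport and 22 of the 30 other epithelial genes were among those upward. In LG73 alone, with 2 Trem2+/+ against 3 WT-TREM2 libraries, the shares were 2.09% and 1.98%, and the epithelial counts 14 and 29. In females alone 1.36% of genes were separated upward and 0.329% downward, with 13 and 25 epithelial genes. Among the 4 Ttr-high and 7 Ttr-low libraries with Alb above 30 CPM the shares were 1.27% and 0.0919%, with 14 and 26 epithelial genes. Over the same genes the medians in these subsets were 2.31 to 2.83 for transport and 2.51 to 2.74 for other epithelial genes, whereas the myelin median ran from -0.32 to 0.60.

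The 8 middle libraries entered neither set and allowed a test. All were from females, 2 of them R47H-TREM2, 3 Trem2+/+ and 3 WT-TREM2, and 2 were libraries in doubt. Ttr ran from 163 to 522 CPM there, a narrow range. Of the 91 separated genes high enough to be fitted there, 73 had a positive slope on Ttr, against 50.8% of 14965 genes. With edgeR's quasi-likelihood test no gene reached an adjusted p under 0.05, and the smallest adjusted p was 0.306. At an unadjusted p under 0.05, 1821 genes passed, 781 with a positive slope (5.22%) and 1040 with a negative one (6.95%). Limma-voom called 0 genes and the Wald test of DESeq2 called 158 (1.06%), 11 of them epithelial genes with a positive slope.

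Epithelial genes had positive slopes in the middle libraries for 45 of 49 members, with a median of 0.38 against 0.01 over all genes. At an unadjusted p under 0.05, 21 of the 49 were positive and 1, Cldn3, was negative. Slc4a5 had a slope of 1.21 ± 0.24 (SE; edgeR unadjusted p = 0.000247, adjusted p = 0.306) and ranged from 1.42 to 8.14 CPM. Kcne2 had a slope of 0.91 ± 0.27 (adjusted p = 0.330) and Enpp2 one of 0.96 ± 0.21 (adjusted p = 0.306). Aqp1, whose slope over all libraries was 0.98, had 0.11 ± 0.45 there (adjusted p = 0.934). Its highest middle value, 19.9 CPM against 9.74 CPM in the next library, was in LG72 Trem2+/+ female 1, the library with Omp at 419 CPM. Without that library the slope of Aqp1 was 0.73 ± 0.28 (edgeR adjusted p = 0.536). Without both libraries in doubt edgeR again called 0 genes, and 1325 of 14664 genes passed at an unadjusted p under 0.05. In that fit 41 of the 49 epithelial genes had a positive slope, with a median of 0.40. The share of all genes with a positive slope was not counted for it. That fit was added after the values were seen. Ependymal genes had a median slope of -0.06, with 7 of 16 positive.

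Several other genes with the smallest p in the middle libraries were no epithelial markers. They were the immediate early genes Egr2 (1.76 ± 0.35, SE), Cyr61 (1.60 ± 0.29) and Dusp1 (0.98 ± 0.19) and the receptor gene Gabra2 (0.80 ± 0.16) with positive slopes. Prr7 (-0.93 ± 0.16), Adra2c (-0.74 ± 0.14), Tmem158 (-0.72 ± 0.13), Vstm2l (-0.74 ± 0.14) and Rgcc (-1.16 ± 0.24) had negative slopes, and for all 9 the edgeR adjusted p was 0.306. Liver genes had negative slopes on Ttr in these 8 libraries, with a median of -2.42, 0 of 10 positive and summed levels of 3.70 to 290 CPM. The part of the samples' liver transcripts in the other slopes was not tested. With title prefix as a term, edgeR called 1177 of 15302 genes, 346 with a positive slope (2.26%) and 831 with a negative one (5.43%). Of the epithelial genes, 17 were then called with a positive slope and 0 with a negative one.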

How the data were processed

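Polyadenylated RNA of hippocampal tissue was isolated with RNeasy kits and oligo(dT) beads, per the labels' protocols. The authors deposited whole-number read counts per gene symbol, aligned to GRCm38 per the submitters' processing notes. Aligner, counter, annotation and strand setting remain not given in the sources used here. In all, the table held 24058 symbols, 25 of them turned into dates (0.353% of counts). There were 18 further columns that matched no sample, and these were not used.

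Libraries were ranked by Ttr counts over column totals. Ttr was then left out, and CPM used TMM factors from edgeR 4.0.16 (R 4.3.3) over 24 libraries. The members, gene lists and rules were chosen with earlier results of these data known. Genes passed filterByExpr over the 16 libraries compared. Log2 fold changes came from edgeR's negative binomial fit with a prior count of 0.125 and have no test. A gene was separated where the sets did not overlap and the log2 fold change was at least 1 in size. Slopes over 24 libraries came from an edgeR fit with a mean for each of 6 groups. In the 8 middle libraries, slopes on log2 Ttr were tested with edgeR's quasi-likelihood test and Benjamini-Hochberg adjustment over 14965 genes, and standard errors were derived from the F statistic. The common biological coefficient of variation was 0.319.

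Named genes were the 15 largest folds with a mean of at least 5 CPM, up to 4 genes of each list with the largest folds, Trem2, Mapt, Prnp and Apoe, epithelial genes that were not separated, and the 10 smallest p in the middle libraries. Predicted genes stayed out unless on a list. Not all of these are printed, and further genes of the lists and separated genes were named after their values were seen. Gene positions came from GENCODE M21. Replicates were counted in accession order, and the labels do not say that they are separate animals. P-values therefore cover only the spread among libraries. Of 42 pairs of libraries of a group, the most alike still differed by 10.7 times sampling noise (chi-square per degree of freedom).

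Alternatives were column totals and DESeq2 size factors, no filter, other separation rules, 6 or 10 libraries a side, subsets by library, prefix and sex, leaving out each library, and DESeq2 1.42.0, limma-voom 3.58.1 or title prefix as a term in the middle libraries. Methods were tested on simulated data.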

Additional observations from a re-analysis of the deposited data

Results flagged for a closer look

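Single libraries far from the other 7 of their set (by Dixon's critical value for the gap over the range) were found in 22 of 168 combinations of a printed gene and a set. A chance rate of about 1 in 20 holds for independent, normally distributed values. CPM of related genes, some printed for their values, need not meet that, so the count is only a description. In the Ttr-high set, LG72 R47H-TREM2 female 2, the library with the most Ttr, stood above the rest for Kcnj13 (61.7 CPM), Cldn2 (37.6 CPM), Prlr (84.7 CPM) and Dsg2 (8.87 CPM). LG72 R47H-TREM2 male 4 was far above the rest for Cox8b (38.1 CPM) and Alb (226 CPM). LG72 R47H-TREM2 female 1 held Mrc1 at 8.20 CPM, and LG73 Trem2+/+ female 2 held Egr2 at 17.4 CPM.

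In the Ttr-low set, LG72 Trem2+/+ male 2 was the highest for Trpm3 (70.1 CPM), Car14 (17.0 CPM), Wfikkn2 (5.11 CPM), Stab1 (20.4 CPM) and Cyr61 (178 CPM, with the next library at 9.49 CPM). LG72 Trem2+/+ male 1 was the highest for Foxj1 (24.1 CPM) and Cldn3 (1.43 CPM), and LG72 Trem2+/+ female 3 for Vat1l (67.0 CPM) and Egr2 (29.1 CPM). LG73 WT-TREM2 female 2 was the highest for Plvap (20.0 CPM), Rsph1 (9.05 CPM) and Apoe (6290 CPM). LG73 WT-TREM2 female 5 was the highest for Mbp (6766 CPM) and the lowest for Atp1b1 (1392 CPM). Adora2a was above 30 CPM in LG73 WT-TREM2 females 2 and 5 and in LG72 Trem2+/+ female 3, whose part in these values was not tested.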

How the results depend on the processing

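The 94 genes separated upward, 0 downward and 29 epithelial genes changed with the libraries compared, and small sets overlap less often. Genes separated upward numbered 184 with 6 libraries a side, 43 with 10 a side, 55 at a log2 fold change of at least 2, 162 without the libraries in doubt, 196 in LG72, 316 in LG73 and 203 in females alone. They numbered 493 in the LG72 R47H-TREM2 males and 194 in libraries with Alb above 30 CPM, 2 alternatives chosen after seeing the data. Genes separated downward numbered 2 with no filter, 4 with 6 a side, 1 without the libraries in doubt, 10 in LG72, 300 in LG73, 49 in females and 14 with Alb above 30 CPM. In the LG72 R47H-TREM2 males 0.821% of genes were separated downward. The LG73 comparison held 2 Ttr-high and 3 Ttr-low libraries, and 44 epithelial genes were separated there, 1 of them Slco1a5, which passed the filter in that subset and not over the 16 libraries. Leaving out each of the 16 libraries in turn gave 93 genes upward at the fewest and 0.852% of genes at the most (without LG72 R47H-TREM2 female 1), 0 to 2 downward and 29 to 36 epithelial genes. Column totals (103 upward) and size factors of DESeq2 (98) made little difference. The epithelial medians, over the genes that passed the filter each time, lay between 2.29 and 3.04 under these alternatives. Fold changes of named genes moved by more than the spread between libraries in 94 cases and by less in 2816, and list medians in 34 and 533. None of those that were separated changed sign.

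In the middle libraries edgeR called 0 genes, also with size factors of DESeq2, with no filter and at an adjusted p under 0.1, and limma-voom called 0. The Wald test of DESeq2 called 158 genes and title prefix as a term gave 1177. Leaving out each of the 8 libraries gave 0 to 1 gene, the 1 without LG72 Trem2+/+ female 2. No paired analysis was possible because replicate numbers only count libraries in accession order. Depth limits the lowest genes, such as Lmx1a, which stood near or at 0 in several Ttr-low libraries.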
